A study of Mus musculus with 4 samples.

Results

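S1pr1, S1pr4, S1pr5, Ccr7 and Klf2 are 5 genes of the machinery by which T cells leave a tissue and reach lymph nodes. They were chosen by name, with earlier results of these data known. They are 5 of the 27998 genes in the annotation of a single-cell RNA sequencing data set of sarcoma-infiltrating UTCαβ. These are unconventional αβ T cells negative for both coreceptors, CD4 and CD8. The cells had been sorted from primary sarcomas induced with the carcinogen 3-methylcholanthrene (3-MCA) in 2 Csf3r+/+ and 2 Csf3r-/- mice, with 1 droplet library of 3′ transcript ends per sarcoma. Csf3r encodes the receptor for granulocyte colony-stimulating factor, and Csf3r-/- mice are short of neutrophils. They lack the gene in every cell, not in neutrophils alone. All 4 samples shared the 3-MCA treatment and the sort gate, and the labels give neither age nor date. Members were read in barcodes with at least 1 UMI (unique molecular identifier, 1 captured transcript) of Cd3e, 200 or more genes, no more than 20000 UMIs and no more than 10% of UMIs from mitochondrial genes, which kept 21342 of 32525 barcodes. The kept cells were 2843 and 6458 in the Csf3r+/+ libraries 1 and 2 and 5215 and 6826 in the Csf3r-/- libraries 1 and 2. The members were followed per library, between genotypes, and between cells with and without a UMI of Cxcr6, a chemokine receptor of tissue-resident and MAIT-like T cells.

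T cells leave tissues and lymphoid organs along a gradient of sphingosine-1-phosphate (S1P), a lipid that is abundant in blood and lymph and scarce in tissue. S1PR1 is the receptor that reads this gradient for exit, and the retention receptor CD69 binds it and removes it from the surface. CCR7 guides T cells from tissue into afferent lymphatics and from blood into lymph nodes, and the zinc finger factor KLF2 drives transcription of S1pr1 in quiescent T cells. Tissue-resident T cells are known for low KLF2, S1PR1 and CCR7.

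The members lie on 5 chromosomes of GRCm38 (mm10): S1pr1 (ENSMUSG00000045092) on chromosome 3, 115710433 to 115715072, S1pr4 (ENSMUSG00000044199) on chromosome 10, 81497747 to 81500132, S1pr5 (ENSMUSG00000045087) on chromosome 9, 21242912 to 21248443, Ccr7 (ENSMUSG00000037944) on chromosome 11, 99144196 to 99155077, and Klf2 (ENSMUSG00000055148) on chromosome 8, 72319033 to 72321656. Klf2 is on the plus strand and the other members are on the minus strand. RefSeq promoters (GRCm38.p6) were on hand for S1pr4, S1pr5 and Klf2, 3 of the 5 members. Bases -250 to -51 before the annotated start are given for the member with the highest mean level, S1pr4 (chr10:81500188-81500387, minus strand), and for the tested member whose genotypes lay furthest apart without overlap, Klf2 (chr8:72318812-72319011, plus strand), with capitals for the KLF-type motif CACCC on either strand (GGGTG on the other strand):
S1pr4: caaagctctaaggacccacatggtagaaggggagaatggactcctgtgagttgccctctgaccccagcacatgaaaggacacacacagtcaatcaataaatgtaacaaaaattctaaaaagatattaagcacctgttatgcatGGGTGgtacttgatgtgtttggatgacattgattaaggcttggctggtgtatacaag
Klf2: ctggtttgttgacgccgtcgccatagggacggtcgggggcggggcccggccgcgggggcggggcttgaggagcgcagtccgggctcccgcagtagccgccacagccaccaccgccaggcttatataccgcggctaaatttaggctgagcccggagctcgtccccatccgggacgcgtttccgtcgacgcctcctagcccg
The S1pr4 window held 1 match, the S1pr5 window 2 and the Klf2 window 0, against 44.4% of 32851 promoter windows of the same length with at least 1. The FOXO motif GTAAACA was in none of the 3 windows and in 2.58% of all windows.

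The libraries held 9827411, 23753033, 14166978 and 16241257 UMIs in kept cells, in the order Csf3r+/+ 1 and 2 and Csf3r-/- 1 and 2, with median depths per cell of 3055, 3026, 2239 and 1983 UMIs. Cd3g was found in 97.3% to 99.3% of kept cells, Cd4 in 0.211% to 1.21% and Cd8a in 0.249% to 0.598%, while T cell receptor constant genes were not in the annotation. Csf3r itself gave 1 to 3 UMIs per library and could not check the genotype in T cells. Between 33 and 163 barcodes were shared by any pair of libraries. The Csf3r+/+ library 2 stood apart in its share of cells with Cxcr6, 47.1% against 77.5% in Csf3r+/+ library 1 and 87.9% and 90.0% in the Csf3r-/- libraries. Macrophage markers summed to 24.0, 311, 128 and 1526 CPM (counts per 1000000 UMIs), and between 1.06% and 7.02% of kept cells carried at least 2 markers of another cell type.

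The 5 members covered a wide range of levels. Levels are CPM, and since 1 transcript end is counted per molecule they were not divided by gene length. S1pr4, a G protein-coupled S1P receptor of lymphocytes, had the highest mean, 105.9 CPM ± 24.5 (SD, n = 4 libraries). Klf2 followed with 58.0 ± 30.2, Ccr7 with 54.2 ± 55.1 and S1pr1 with 39.5 ± 13.2. The ranges of Klf2, Ccr7 and S1pr1 over libraries overlapped, as did that of S1pr4 with those of Klf2 and Ccr7, so their order was not larger than the spread between libraries. In Csf3r+/+ library 2, Ccr7 (134 CPM) and Klf2 (96.3 CPM) exceeded S1pr4 (91.2 CPM). Among these 4 members, only the ranges of S1pr4 and S1pr1 were apart. S1pr5, the S1P receptor used by NK cells to leave bone marrow and lymph nodes, was at the limit of detection, with 14 UMIs in 21342 cells.

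S1pr1 stood at 23.7 and 51.4 CPM in the Csf3r+/+ libraries and at 49.4 and 33.4 CPM in the Csf3r-/- libraries. Both Csf3r-/- values fell between the Csf3r+/+ values. Its fitted log2 fold change of Csf3r-/- over Csf3r+/+ was -0.0035 (SE 0.46, adjusted p = 0.999, edgeR), with no stable sign over the alternatives. S1pr4 stood at 87.6 and 91.2 CPM in the Csf3r+/+ libraries and at 141 and 104 CPM in the Csf3r-/- libraries. These groups did not overlap, as was the case for 47.9% of the 11491 genes tested, and the log2 difference of 0.34 (SE 0.21, adjusted p = 0.537) did not pass the test.

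Klf2 had the largest fitted difference between genotypes among the 4 members tested. It was measured at 67.4 and 96.3 CPM in the Csf3r+/+ libraries and at 30.3 and 37.9 CPM in the Csf3r-/- libraries, so that both Csf3r-/- values lay below both Csf3r+/+ values. The means were 81.8 ± 20.5 and 34.1 ± 5.36 CPM (SD, n = 2 each), a log2 fold change of -1.38 (SE 0.30). With edgeR the adjusted p was 0.161. Over the alternatives that kept all 4 libraries it ranged from 0.00752 to 0.193. Of these, DESeq2 (0.00752) and the barcode number as a block (0.0359) passed the threshold of 0.05. The log2 fold change was negative in each of the 12 alternatives, from -1.68 to -0.999. It was -1.42 (adjusted p = 0.121) without barcodes that carried markers of other cells.

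Ccr7 varied more between the Csf3r+/+ libraries than any other member, but not between the Csf3r-/- libraries. The Csf3r+/+ libraries held 8.24 and 134 CPM and the Csf3r-/- libraries 36.1 and 38.2 CPM. The 2 Csf3r+/+ libraries thus enclosed both Csf3r-/- libraries. The log2 fold change between genotypes was -1.12 (SE 1.19, adjusted p = 0.734). It turned to 2.15 without Csf3r+/+ library 2 and reached -2.04 without Csf3r+/+ library 1.

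S1pr5 gave 6 and 5 UMIs in Csf3r+/+ libraries, and in Csf3r-/- libraries it gave 2 and 1. Summed by genotype these were 11 UMIs (exact 95% Poisson interval 5.49 to 19.7) of 33580444 and 3 UMIs (0.619 to 8.77) of 30408235, and the intervals overlapped. Each UMI came from a different cell. Of the 14 cells, 11 had a UMI of Cxcr6 (74.8% of all kept cells), 6 of S1pr1 (10.8%) and 5 of the granzyme gene Gzma (2.78%). None had a UMI of Eomes or Cx3cr1, which were found in 4.62% and 0.440% of kept cells, so that 14 cells are too few to show a lack of either. No test was made on these cells, whose depth was not matched. S1pr5 did not pass the filter on low counts in any comparison and was left untested by the filtered fits.

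**Figure D1:**
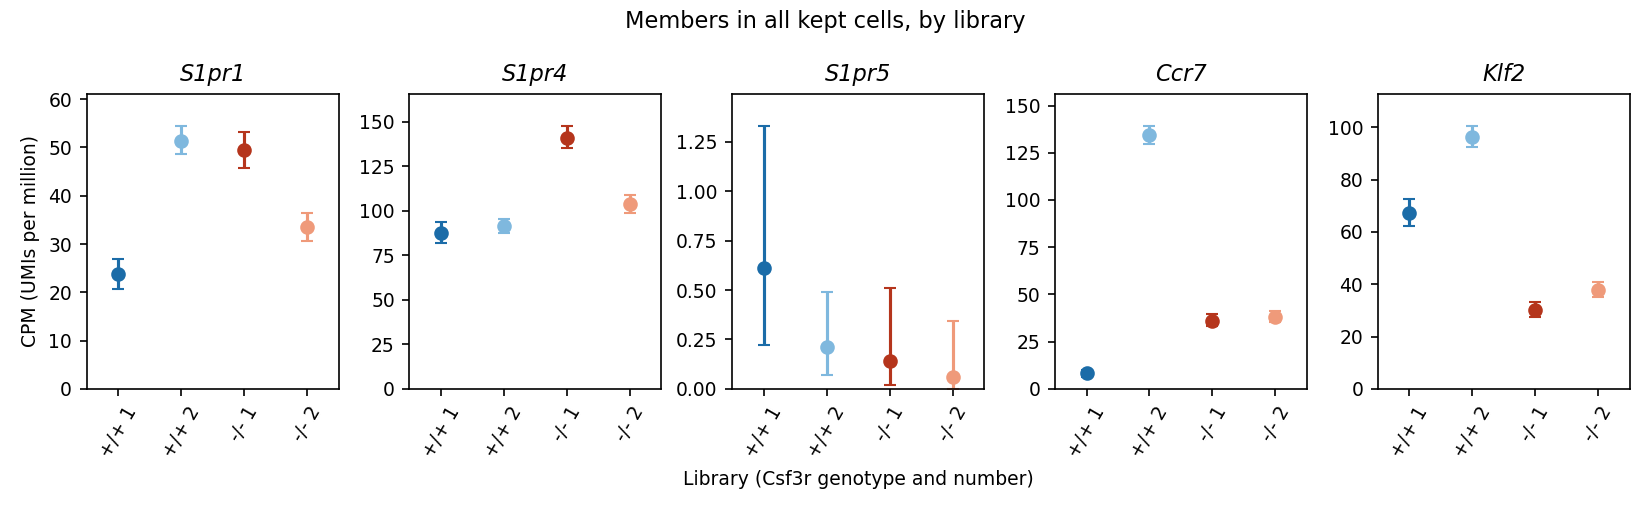
Level of each member in all kept cells of the 4 libraries, in CPM on axes that start at 0, with exact 95% Poisson intervals that cover counting error only. Klf2 lies at 67.4 and 96.3 CPM in Csf3r+/+ and at 30.3 and 37.9 CPM in Csf3r-/- libraries, while the Ccr7 values of Csf3r+/+ (8.24 and 134 CPM) enclose those of Csf3r-/-.

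Of 11491 genes tested between genotypes over all kept cells, 0% passed an adjusted p of 0.05 with edgeR, among them 0 of the 4 members tested. At an unadjusted p under 0.05 there were 1663 genes, and DESeq2 called 626, including Klf2. The genotypes did not overlap in CPM for 2 of the 4 members tested (S1pr4 and Klf2), against 47.9% of the 11491 genes, so this count was near the background. For genes lower in both Csf3r-/- libraries, as Klf2 was, the share was 17.4%, and for genes higher in both, as S1pr4 was, it was 30.4%. An exact permutation test of 2 against 2 libraries cannot go below p = 0.333, so no single gene was tested in this way.

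The members were then followed as shares of cells, after each cell was thinned to 1500 UMIs, since a deeper cell shows a low gene more often. Of the 21342 cells, 1718 were too shallow and were left out (63 and 139 in Csf3r+/+, 541 and 975 in Csf3r-/-). S1pr4 was found in 13.5% and 13.1% of cells in Csf3r+/+ and in 19.0% and 14.0% in Csf3r-/- libraries. S1pr1 was found in 3.60%, 7.55%, 6.74% and 4.68% of cells in the same order. Klf2 was found in 8.99% and 12.1% of Csf3r+/+ cells and in 4.04% and 4.48% of Csf3r-/- cells, so that the separation seen in CPM was present in the share of cells as well. Ccr7 was found in 1.26% and 9.19% of Csf3r+/+ cells and in 3.10% and 3.21% of Csf3r-/- cells. S1pr5 was found in 2, 5 and 2 cells and in 0 of 5851 cells of Csf3r-/- library 2, which allows a share of up to 0.0513% of cells with a UMI.

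The number of UMIs per thinned cell with the gene was close to 1 for S1pr1 (1.04 to 1.08) and S1pr4 (1.09 to 1.13). For Klf2 it was 1.26 and 1.24 in Csf3r+/+ and 1.07 and 1.15 in Csf3r-/- libraries. Ccr7 reached 1.72 in Csf3r+/+ library 2, 1.46 and 1.49 in the Csf3r-/- libraries and 1.11 in Csf3r+/+ library 1. Most cells, from 64.7% to 76.3% per library, held no UMI of any member at this depth, and at most 0.538% held UMIs of 3 or more.

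The same shares were also read in 186 barcodes without Cd3e and with at least 3 macrophage markers (median 4944 UMIs, 180 of them thinned). They held S1pr1 in 2.78%, S1pr4 in 7.22%, Ccr7 in 2.22% and Klf2 in 8.33% (exact 95% interval 4.74% to 13.4%), and also the T cell gene Cd3d in 32.8%, so that they were not free of T cell transcripts. S1pr4 in kept cells lay above the interval of these barcodes (3.90% to 12.0%) in each library. S1pr1 lay above it (0.908% to 6.36%) in Csf3r+/+ library 2 and Csf3r-/- library 1, and Ccr7 (0.609% to 5.59%) in Csf3r+/+ library 2. Their shares in the other libraries, of both genotypes, were inside the interval, which pools the barcodes of all libraries, and cannot be told from this level. Klf2 in these macrophage barcodes amounted to 115 CPM, above its level in each of the 4 libraries of kept cells, while Cd3d was at 228 CPM against 1033 to 1180 CPM in kept cells. These barcodes thus gave no background for Klf2.

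Cells with and without a Cxcr6 UMI came from the same libraries, which allowed each library to serve as its own control. Ccr7 was the member that differed. In cells without Cxcr6 it reached 13.8, 179, 139 and 152 CPM (Csf3r+/+ 1 and 2, Csf3r-/- 1 and 2), and in cells with Cxcr6 6.53, 83.1, 22.2 and 24.8 CPM. It was lower with Cxcr6 in 4 of 4 libraries, with a log2 fold change of -2.06 (SE 0.30, adjusted p = 0.00751, edgeR with the library as a block). Over the 12 alternatives the adjusted p ranged from 2.06e-09 to 0.0519, and the highest value, 0.0519, came from the fit without Csf3r-/- library 2. Cells without Cxcr6 made up 22.5% and 52.9% of the cells in Csf3r+/+ and 12.1% and 10.0% in Csf3r-/- libraries. They carried 39.5% and 71.2% of the Ccr7 UMIs in Csf3r+/+, and 45.9% and 41.8% in Csf3r-/-.

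S1pr1 was at 31.0, 46.5, 64.3 and 46.8 CPM without Cxcr6 and at 21.5, 57.0, 47.4 and 31.9 CPM with Cxcr6. It was lower with Cxcr6 in 3 of 4 libraries and higher in Csf3r+/+ library 2, and the log2 fold change of -0.37 (SE 0.16) did not pass the test (adjusted p = 0.205). The S1pr1 difference passed with thinned cells (-0.41, adjusted p = 0.0309) and without Csf3r+/+ library 2 (-0.65, adjusted p = 0.00393). That library was the one that went the other way in CPM, so this pass is no added support. Without any other library the adjusted p was from 0.450 to 0.522. Klf2 was at 99.8, 76.8, 46.6 and 58.0 CPM without Cxcr6 and at 57.3, 119, 28.1 and 35.5 CPM with it. Csf3r+/+ library 2 again went against the other 3 libraries in CPM, with a log2 fold change of -0.45 over all (SE 0.25, adjusted p = 0.303). It was -0.89 (adjusted p = 0.000431) without that library, which again is no added support. Without any other library the adjusted p of Klf2 was from 0.611 to 0.654. S1pr4 was at 74.0, 88.7, 117 and 102 CPM without and at 91.8, 94.0, 144 and 104 CPM with Cxcr6. It was higher with Cxcr6 in 4 of 4 libraries, yet by only 0.06 on the log2 scale after normalization (SE 0.09, adjusted p = 0.725).

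**Figure D2:**
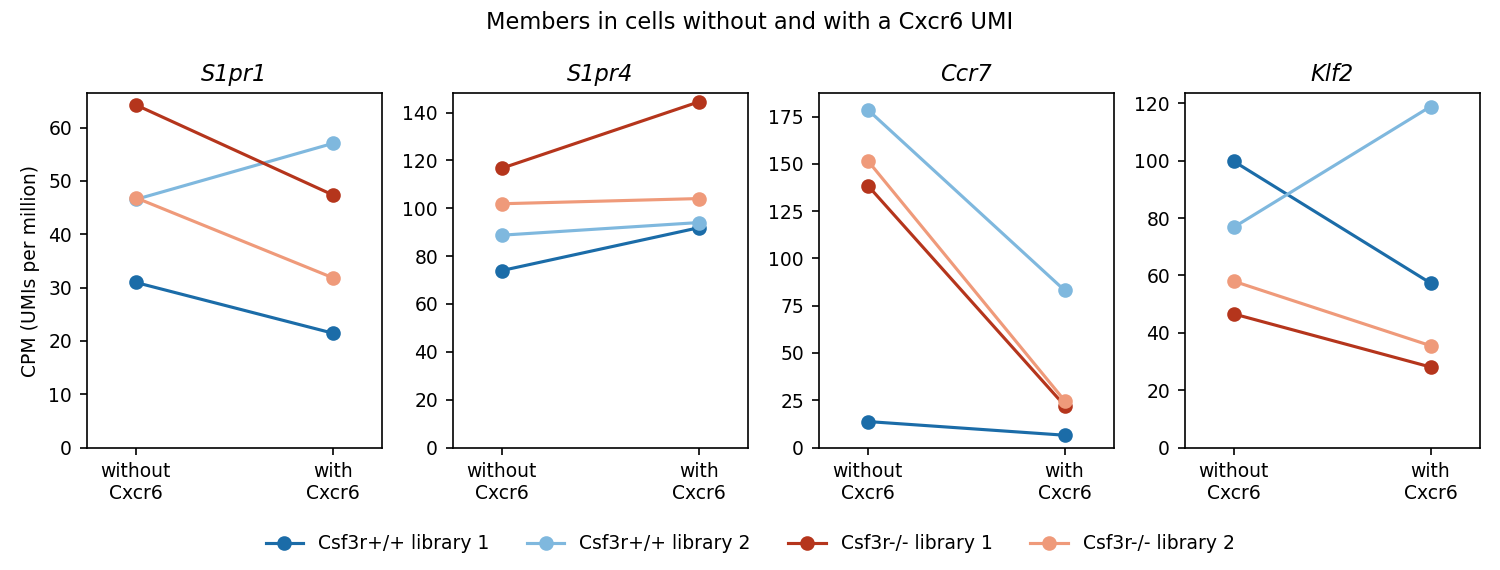
Level of S1pr1, S1pr4, Ccr7 and Klf2 in cells without and with a Cxcr6 UMI, in CPM on axes that start at 0, with 1 line per library. Each Ccr7 line falls, from 179 to 83.1 CPM in Csf3r+/+ library 2 and from 152 to 24.8 CPM in Csf3r-/- library 2. In CPM, S1pr1 and Klf2 rise in Csf3r+/+ library 2 and fall in the other 3 libraries. The S1pr1 rise was not present in the share of thinned cells.

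Of 10783 genes tested in this comparison, 984 (9.13%) passed, 464 of them (4.3%) lower with Cxcr6, and 1 of the 4 members tested passed. With library totals in place of TMM factors, 829 genes were higher and 295 lower, against 520 and 464, with a shift of 0.11 in the log2 fold changes of all genes. Ccr7 was lower under both scalings. Sums of cell type markers also differed along Cxcr6. NK cell markers (Ncr1, Klrb1c, Eomes and Tyrobp) summed to 962, 421, 496 and 414 CPM without Cxcr6 and to 286, 353, 117 and 132 CPM with Cxcr6. The paper reports NK cell-related genes in a part of the UTCαβ themselves. Macrophage markers in Csf3r-/- library 2 summed to 4566 CPM without and 1169 CPM with Cxcr6. The 7 dendritic cell markers summed to at most 5.16 CPM in any library and kind of cell, with Siglech or Ccl22 at 0 in each library. B cell markers (5 genes) summed to 7.74, 18.9, 118 and 21.1 CPM without Cxcr6 and to 19.2, 15.2, 75.7 and 20.9 CPM with it, and Pax5, Cd79a and Ms4a1 were at 0 in Csf3r+/+ library 1. Kept barcodes with B cell markers, 27 in Csf3r+/+ library 2 and 52 and 5 in the Csf3r-/- libraries, held Ccr7 at 369, 308 and 569 CPM, which in Csf3r-/- library 1 was 67 of 512 Ccr7 UMIs. Without barcodes that carried at least 2 markers of another cell type, B cells included, the Ccr7 difference was -2.16 (adjusted p = 0.00457). The types filtered were macrophage, B cell, dendritic cell, fibroblast or sarcoma, endothelial cell and neutrophil. NK cell markers were not part of this filter.

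Both genotypes showed lower Ccr7 with Cxcr6, but by unequal factors. The level without Cxcr6 was 2.11 and 2.15 times that with Cxcr6 in the Csf3r+/+ libraries and 6.24 and 6.10 times in the Csf3r-/- libraries. In thinned cells with Cxcr6, Ccr7 was found in 0.880% and 3.54% (Csf3r+/+) and in 1.65% and 2.01% (Csf3r-/-). These shares lay inside the interval of the macrophage barcodes (0.609% to 5.59%), as did 1.98% without Cxcr6 in Csf3r+/+ library 1. That interval rests on 4 of 180 thinned barcodes pooled over the libraries, which also held T cell transcripts. By this pooled share, the side with Cxcr6 cannot be told from these barcodes. This does not show that it was at background. Without Cxcr6 the shares were 11.8% in Csf3r+/+ library 2 and 10.1% in each Csf3r-/- library, above the interval. The Cxcr6 call was made again after thinning, which left 31.7% of cells of Csf3r+/+ library 2 with Cxcr6 (47.1% of kept cells before). The factors are CPM ratios of unthinned cells. In CPM, Ccr7 with Cxcr6 was at 6.53, 83.1, 22.2 and 24.8, against 25.0 in the pooled macrophage barcodes. By library these barcodes held Ccr7 at 0, 21.3, 15.3 and 31.2 CPM, on 0, 7, 1 and 18 UMIs. Cells with Cxcr6 were above the barcodes of their own library except in Csf3r-/- library 2, on few barcode UMIs and without a test. The interaction of genotype and Cxcr6 was -1.59 on the log2 scale (SE 0.16, adjusted p = 0.0467), and Ccr7 was among 6 genes (0.0523% of 11466 tested) that passed. The other 5 were Ccl5, Klra8, Bcl2l11, Bcl2 and Cd14, named after their values were seen. Over the 12 alternatives the adjusted p of Ccr7 ranged from 2.97e-11 to 0.596. It was 0.111, 0.414 and 0.596 without Csf3r+/+ library 2, Csf3r-/- library 1 and Csf3r-/- library 2, with log2 values of -1.61, -1.59 and -1.58. Without barcodes that carried markers of other cells it was -1.61 (adjusted p = 0.0217). With cells thinned to 1500 UMIs the interaction was -1.05 (adjusted p = 0.0714), and with at least 2 Cxcr6 UMIs required it was -1.48 (adjusted p = 0.0983).

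The call of a cell as having Cxcr6 rests on a level that itself differed between genotypes. Among cells with Cxcr6, Cxcr6 was at 679 to 1422 CPM in Csf3r+/+ and at 2481 to 2559 CPM in Csf3r-/- libraries. The part of this difference in the Ccr7 interaction was not tested beyond the thinned cells and the stricter call. The interaction was not past the threshold for S1pr1 (-0.55, adjusted p = 0.600), S1pr4 (-0.07, adjusted p = 0.948) or Klf2 (-0.77, adjusted p = 0.636). For S1pr1 it changed to -0.86 (adjusted p = 0.0306) without Csf3r+/+ library 1 and to -0.02 (adjusted p near 1) without Csf3r+/+ library 2. For Klf2 it changed to -1.42 (adjusted p = 0.000328) and to 0.02 (adjusted p near 1) without the same libraries, and with no filter on low counts it was -0.73 (adjusted p = 0.0208).

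Within each kind of cell, the genotypes were compared again. In cells without Cxcr6, 40 of 8412 genes (0.476%) passed, and 0 of the 4 members tested. Klf2 was lower in both Csf3r-/- libraries, with a log2 fold change of -0.76 (SE 0.25, adjusted p = 0.435). S1pr1 and S1pr4 were higher in both Csf3r-/- libraries, by 0.45 (SE 0.31) and 0.39 (SE 0.23) with adjusted p above 0.99 for each. The genotypes thus did not overlap for 3 of these 4 members, against 31.8% of the genes tested. This count was not tested against that share. The margin for S1pr1 was small, with 46.8 CPM in Csf3r-/- library 2 and 46.5 CPM in Csf3r+/+ library 2. Their exact Poisson intervals (37.1 to 58.3 and 42.9 to 50.4 CPM) overlapped. So did those of S1pr4 in the same libraries (87.3 to 118 and 83.6 to 94.1 CPM). Those of Klf2 (47.1 to 70.6 and 72.1 to 81.8 CPM) did not. Ccr7 had a log2 fold change of 0.49 (SE 0.90), and of 3.43 without Csf3r+/+ library 2. That fit kept only Csf3r+/+ library 1 (13.8 CPM, against 179 CPM in library 2) and cannot measure the spread within Csf3r+/+. In cells with Cxcr6, 0% of 11154 genes passed with edgeR, and 1488 had an unadjusted p under 0.05, whereas DESeq2 called 513. Klf2 had a log2 fold change of -1.59 (SE 0.45, adjusted p = 0.251, DESeq2 0.0275), and its Csf3r+/+ libraries (57.3 and 119 CPM) did not overlap its Csf3r-/- libraries (28.1 and 35.5 CPM), as was the case for 46.3% of the genes tested. It was -2.07 (adjusted p = 0.0260) without Csf3r+/+ library 1 and -0.86 (adjusted p = 0.200) without Csf3r+/+ library 2. S1pr4 was at 0.32 (SE 0.22, adjusted p = 0.606), S1pr1 at -0.13 (SE 0.54, adjusted p = 0.949) and Ccr7 at -1.09 (SE 1.10, adjusted p = 0.738), or at -1.99 without Csf3r+/+ library 1.

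**Figure D3:**
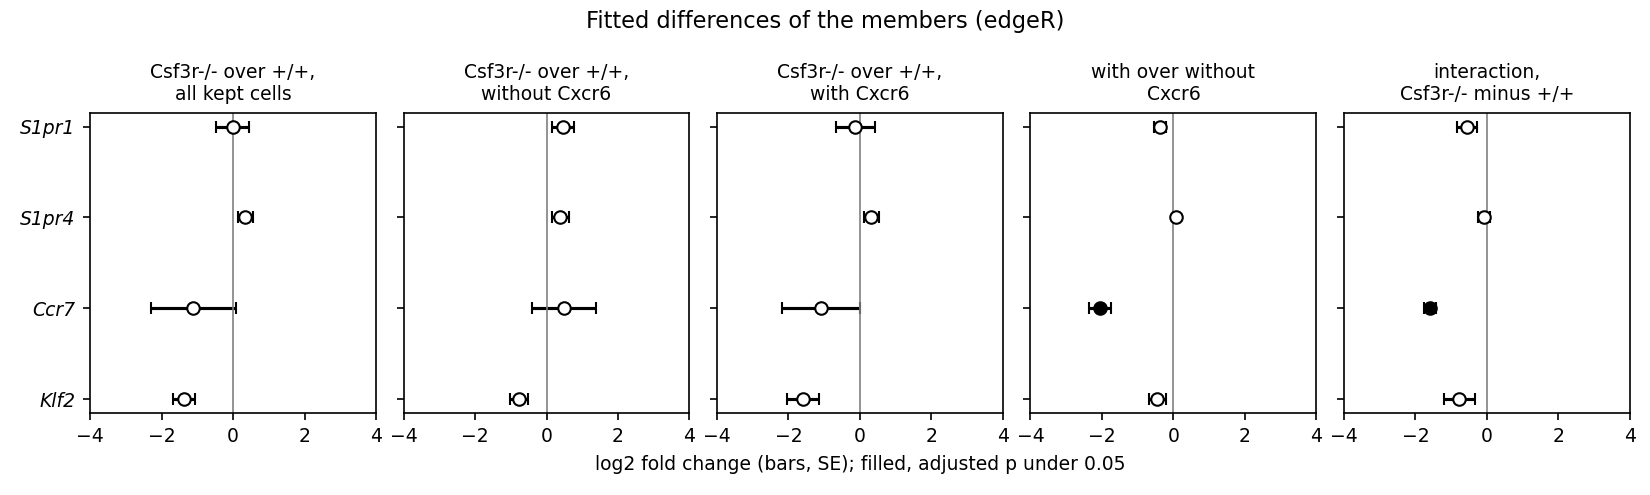
Fitted log2 fold changes of 4 members in the 5 comparisons, with bars for the standard error and filled points for an adjusted p under 0.05. The filled points are Ccr7 with against without Cxcr6 (-2.06) and Ccr7 in the interaction of genotype and Cxcr6 (-1.59), and Klf2 lies below 0 in each of the 5 comparisons.

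The levels of the members were next described in cells with and without other marker genes of these T cells, with no test, because cells of 1 library are not replicates. Ccr7 was higher in 4 of 4 libraries in cells with Eomes, a T-box factor of memory and NK-like cells. It reached 19.7, 276, 185 and 182 CPM in cells with Eomes and 7.49, 109, 30.3 and 34.1 CPM in cells without, a ratio of 2.63 and 2.52 in Csf3r+/+ and of 6.10 and 5.34 in Csf3r-/- libraries. Cells with Eomes numbered 126, 644, 114 and 101 in these libraries. Ccr7 was lower in 4 of 4 libraries in cells with Tmem176b (ratio 0.215 to 0.718) and with Itgae (0.311 to 0.870), the αE integrin of epithelial retention. For Itgae, the value in Csf3r+/+ library 1 rests on 3 Ccr7 UMIs in 191 cells and shows no direction by itself.

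Klf2 had another pattern. It was higher in 4 of 4 libraries in cells with Cd69, at 81.1, 105, 34.0 and 44.2 CPM against 53.0, 80.3, 26.2 and 32.4 CPM without. CD69 is the retention receptor that opposes S1PR1. It was higher in 4 of 4 libraries with Gzmb (1.19 to 2.19 times), with Tbx21 (1.11 to 2.19 times), the factor of type 1 cells, and with the interferon-induced Ifit3 (1.14 to 1.56 times). Klf2 was lower in 4 of 4 with Il17a (0.209 to 0.893) and Gzmk (0.297 to 0.960). S1pr1 was lower in 4 of 4 with Tmem176b (0.723 to 0.974) and Il17a (0.598 to 0.946). The ratios for Il17a in Csf3r+/+ and for Gzmk rest on few UMIs. Cells with Il17a numbered 41 and 31 in Csf3r+/+, with 2 and 3 UMIs of Klf2 and 2 and 5 of S1pr1. Cells with Gzmk numbered 162 and 57 in Csf3r+/+ and 39 and 61 in Csf3r-/-. They held 30, 10, 5 and 5 Klf2 UMIs in this order. S1pr4 was higher with Itgae in 4 of 4 libraries (1.03 to 1.13 times). It was lower with Tbx21 (0.717 to 0.974), Eomes (0.626 to 0.886), Cd69 (0.864 to 0.949) and Nr4a1 (0.785 to 0.905). These are CPM ratios without TMM factors or a share of all genes. Along Cxcr6 the scaling alone shifted log2 fold changes by 0.11. Its part in ratios this near 1 was not tested.

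**Figure D4:**
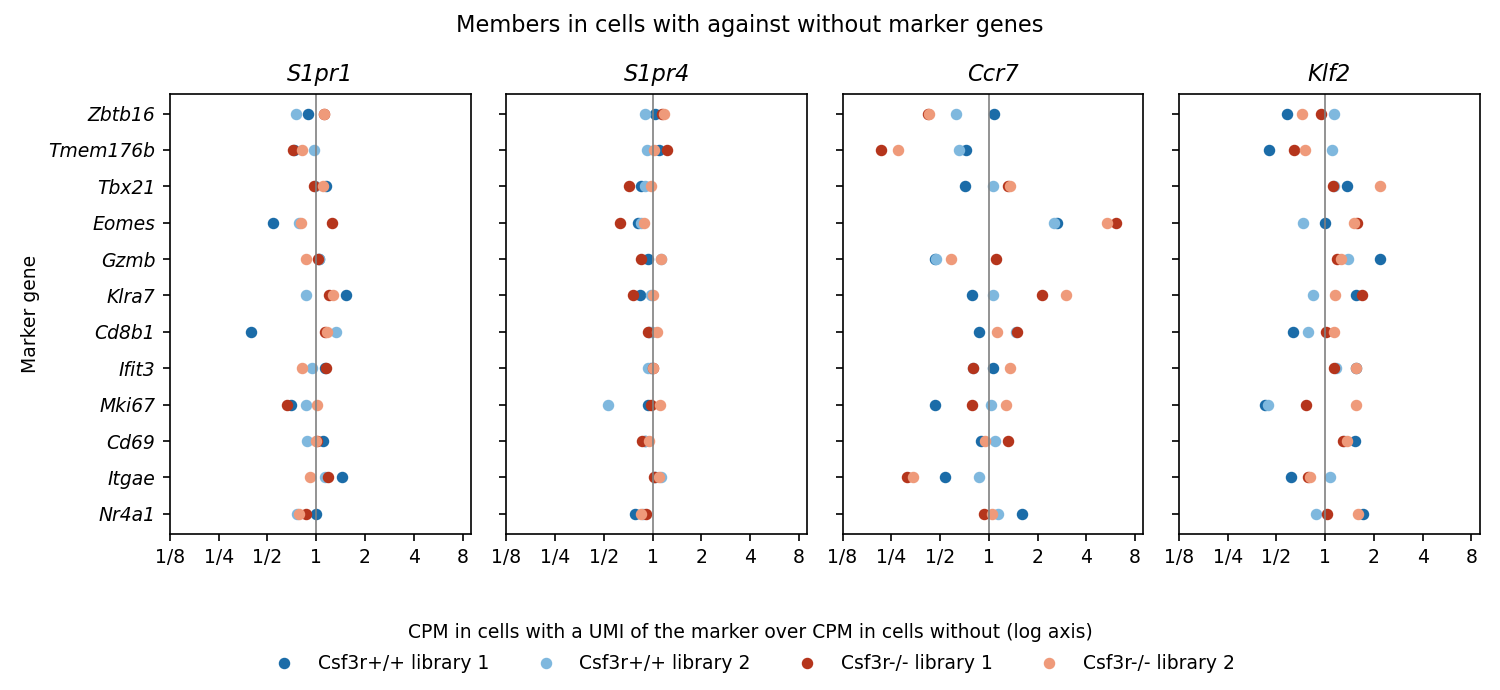
Ratio of the level of 4 members in cells with a UMI of a marker gene to that in cells without, on a log axis, with 1 point per library, for 12 markers found in at least 100 cells of each library. Ccr7 points for Eomes (2.52 to 6.10) lie right of 1 in each library, and those for Tmem176b (0.215 to 0.718) lie left of it.

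How often 2 of the genes were found in 1 cell was compared with the product of their shares, in cells thinned to 1500 UMIs. S1pr1 and Klf2 were found together 1.67, 1.34, 1.26 and 1.30 times as often as this product, on 15, 77, 16 and 16 cells. S1pr1 and S1pr4 were also above the product in each library, at 1.49, 1.25, 1.02 and 1.17 times, on 20, 78, 61 and 45 cells. The ratio over gene pairs in general was not taken, so neither pair can be called unusual. Ccr7 and Klf2 were at 0.953 and 0.770 times the product in Csf3r+/+ and at 2.39 and 2.02 times in Csf3r-/- libraries. These ratios rest on 3, 54, 14 and 17 cells. In Csf3r+/+ library 1 the share with both was 0.108% against a product of 0.113%, which cannot be told apart on 3 cells. A difference between genotypes was not tested, and this pair was not set against gene pairs in general either. S1pr4 with Ccr7 was on both sides of 1 (0.850 to 1.14).

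**Figure D5:**
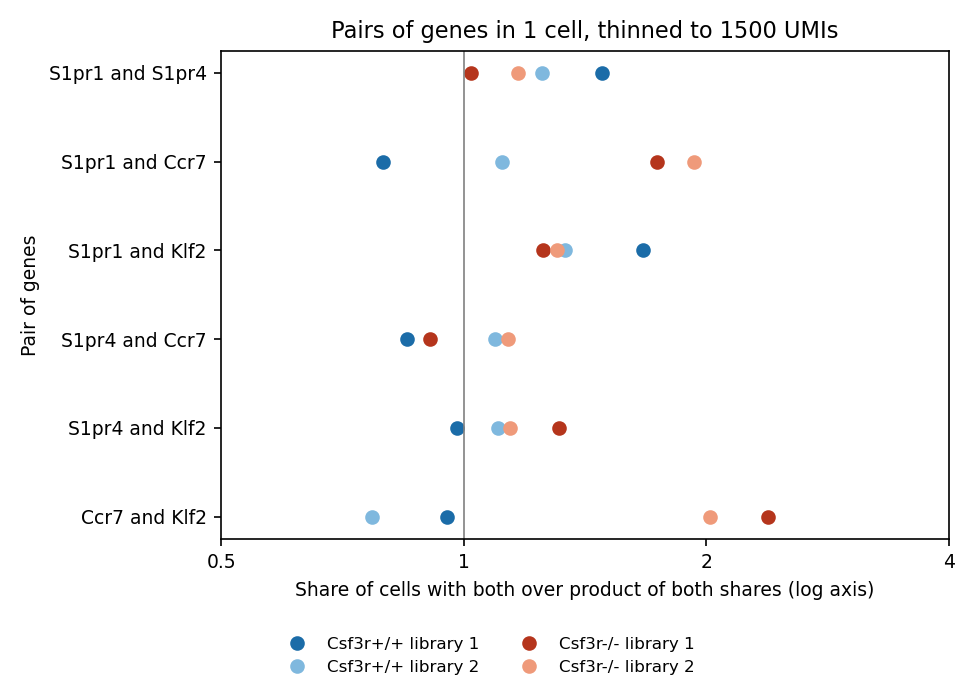
Share of cells with UMIs of both genes of a pair divided by the product of the 2 shares, on a log axis, with 1 point per library, in cells thinned to 1500 UMIs. S1pr1 with Klf2 lies above 1 in each library, at 1.26 to 1.67, as does S1pr1 with S1pr4, at 1.02 to 1.49. Ccr7 with Klf2 lies at 0.953 (on 3 cells) and 0.770 in the Csf3r+/+ libraries. It lies at 2.39 and 2.02 in the Csf3r-/- libraries, on 14 and 17 cells.

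The genes most like each member were those whose share of cells was most raised in cells with the member, by the lowest log2 ratio of the 4 libraries among 5019 or 5020 genes. For Ccr7 they included H2-Oa (lowest ratio 1.03 on the log2 scale), the immediate early factor Nr4a2 (0.61), the lipid receptor gene Gpr18 (0.54) and the kinase gene Sgk1 (0.50). For Klf2 they were the kinesin gene Kif21b (0.59), Myc (0.51), the heat shock genes Dnajb1 (0.45) and Hspa1a (0.45), and Sec24c (0.45). For S1pr1 they were Cspp1 (0.51), Rap2b (0.45), Anks3 (0.43), Usp20 (0.41) and Setd4 (0.40), and for S1pr4 Smek1 (0.27), Rasgrp2 (0.27), Gosr1 (0.26), Thoc6 (0.25) and Tmem106b (0.24). These ratios come from as few as 35 cells with Ccr7 in a library and share the depth of 1500 UMIs. S1pr5 had too few cells for this measure.

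Other genes of the same pathways were counted in lists that had been set by name, with earlier results of these data known. The S1P pathway list (receptors, enzymes, transporters and G protein partners of S1P) held 18 symbols, some of them old and new names of 1 gene. Of these, 16 were in the annotation. With against without Cxcr6, 10 could be tested and 0 passed, against 9.13% of all genes tested. Their median log2 fold change was 0.03 against 0.00 over all genes. Of 13 lymph node homing genes 12 were tested, 2 were higher and 1 lower with Cxcr6, beside the 9.13% called among all genes. Counts this small were not compared with that share by a test. The α4 integrin gene Itga4 fell from 85.8 ± 10.6 to 42.5 ± 10.5 CPM (mean ± SD, n = 4; log2 fold change -1.15, adjusted p = 0.00321). The partner of α4 and αE, Itgb7, rose by 0.89 (adjusted p = 0.00321), and the LFA-1 chain Itgal by 0.54 (adjusted p = 0.0194).

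Of the 14 genes of KLF2 and quiescence factors all were tested and 3 passed, against the same 9.13%. Tcf7, a factor of naive and memory T cells, fell with Cxcr6 by 0.94 in log2 units (adjusted p = 0.00494), as did Foxp1 by 0.70 (adjusted p = 0.0163), whereas the interleukin-7 receptor gene Il7r rose by 1.31 (adjusted p = 0.0276). Of the 14 tissue retention genes 3 passed, also against 9.13%. Itgae rose by 1.35 (adjusted p = 0.00641) and Cd44 by 0.64 (adjusted p = 0.0228), and Rgs16, a regulator of G protein signals, fell by 1.40 (adjusted p = 0.0138). Each of these 9 genes moved in its direction in 4 of 4 libraries. They were named because they passed the test over these same libraries, so this is no added evidence. Between genotypes, over all kept cells, in cells with and in cells without Cxcr6 and in the interaction, 0 genes of the 4 lists passed. The median log2 fold change of the KLF2 and quiescence list between genotypes was -0.52 against 0.00 over all genes, and it was -0.46 in cells with Cxcr6 but 0.12 in cells without.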

How the data were processed

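Per the methods, the authors sorted UTCαβ, made 10x 3′ v2 libraries and obtained UMI counts with Cell Ranger on mm10, pooling both libraries of a genotype; the deposited counts are raw. The number after each barcode gave the library; no label links it to a sample, and it names no animal. All columns were used (0 without a sample). Of the 15137 Csf3r+/+ and 17388 Csf3r-/- barcodes, 15078 and 17303 passed the stated limits without the Cd3e filter. Doublets were not called. Members and gene lists were chosen with earlier results of these data known, and genes withheld for evaluation were taken out of lists and rankings and are not reported.

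Sums of UMI counts for each library, split by Cxcr6 call where needed, entered the quasi-likelihood F test of edgeR 4.0.16 in R 4.3.3 (filterByExpr, TMM factors). Adjustment followed Benjamini-Hochberg across the genes tested, at 0.05. SE was the log2 fold change over the root of F. The library was a block in comparisons along Cxcr6, since both sums come from the same library. DESeq2 1.42.0, RLE factors, no filter, the upper limits on genes (3500 and 4000), no barcodes with at least 2 markers of another cell type, each library left out, thinning, a stricter Cxcr6 call, the barcode number as a block and all barcodes were alternatives. Library totals in place of TMM were added after seeing the data. Named were the members, up to 3 genes per list and direction past the threshold, and the 5 genes most like each member (found in at least 2% of thinned cells of each library, and for members with at least 20 cells per library). Intervals are exact and cover counting error only, as do limits of 3 counts. In simulated data with 200 genes changed by 2 on the log2 scale and an assumed dispersion of 0.05, edgeR recovered 97.5% of changed genes between genotypes (11340 genes, 2.04% of calls false) and 99.0% along Cxcr6 (10667 genes, 5.03% false). This checks the scripts and does not measure the power in these libraries.

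Promoter sequences came from RefSeq and gene places from GENCODE vM21. Scripts used Python 3.11.15 with numpy 2.4.6, scipy 1.17.1 and pandas 2.3.3.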

Additional observations from a re-analysis of the deposited data

Results flagged for a closer look

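The difference of Ccr7 between cells with and without Cxcr6 was larger in Csf3r-/- than in Csf3r+/+ libraries, by a test of the difference itself: the interaction was -1.59 on the log2 scale (adjusted p = 0.0467, edgeR), with -1.07 and -1.10 in the Csf3r+/+ and -2.64 and -2.61 in the Csf3r-/- libraries. Over the alternatives the adjusted p ranged from 2.97e-11 to 0.596. It was not past the threshold with thinned cells or with the stricter Cxcr6 call, and the level of Cxcr6 among cells with it was lower in both Csf3r+/+ libraries. The share of thinned cells with Ccr7 among those with Cxcr6 was inside the interval of the macrophage barcodes in each library. That interval pools all libraries and rests on 4 of 180 barcodes.

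S1pr4 was also measured in barcodes without a Cd3e UMI, which entered a fit only in the alternative with all barcodes. It was at 82.7 and 93.5 CPM in the Csf3r+/+ and at 129.7 and 101.6 CPM in the Csf3r-/- libraries, so that both Csf3r-/- values were above both Csf3r+/+ values. These barcodes came from the same libraries as the kept cells and are no independent check. In kept cells 30.4% of 11491 genes were higher in both Csf3r-/- libraries, and no such share was taken in these barcodes. The exact 95% Poisson intervals of Csf3r+/+ library 2 (88.7 to 98.6 CPM) and of Csf3r-/- library 2 (94.3 to 109 CPM) overlapped.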

How the results depend on the processing

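The numbers after the barcode were shared by both genotypes, and the log2 differences between libraries 1 and 2 of each genotype correlated with r = 0.323 over 9558 genes. With only 2 pairs the numbers were not taken to pair the samples. With this number as a replicate block, 300 genes passed between genotypes over all kept cells (0 without the block), 404 in cells without Cxcr6 (40) and 198 in cells with Cxcr6 (0). No pairing was needed along Cxcr6, where the library was the block.

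DESeq2 called 626, 154, 513 and 15 genes between genotypes in all cells, in cells without and with Cxcr6 and in the interaction. No filter on low counts gave 303, 475, 235 and 382 genes, and 1697 along Cxcr6. Library totals in place of TMM gave 62 genes in cells without Cxcr6 and shifted the median of all genes between genotypes by 0.10 on the log2 scale. The interaction had 2 genes with the upper limits on genes, 146 with thinned cells and 0 with at least 2 Cxcr6 UMIs (902 at an unadjusted p under 0.05). Leaving out each library gave 0 to 847 genes between genotypes, 190 to 1866 along Cxcr6, 0 to 334 without Cxcr6, 0 to 819 with Cxcr6 and 0 to 417 in the interaction. The 0 counts were from edgeR, and where an arm kept 1 library it was assumed to vary like the others.

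Of 248 member values under alternatives, 213 kept their direction and side of the threshold, 6 were lost, 14 gained and 15 reversed. The 213 include values that could not change, since the stricter Cxcr6 call left the cells without Cxcr6 as they were. S1pr1 between genotypes turned to 0.13 with library totals, 0.00032 without barcodes with markers of other cells and 0.11 with the block, and ranged from -0.50 to 0.78 over libraries left out. In cells with Cxcr6 it turned to 0.0082 with library totals and 0.040 with the block, and ranged from -0.70 to 0.86. Over libraries left out, Ccr7 between genotypes ranged from -2.04 to 2.15 in all cells, from -0.38 to 3.43 without and from -1.99 to 1.84 with Cxcr6. The interaction ranged from -0.23 to 0.087 for S1pr4 and from -1.42 to 0.021 for Klf2. The cause was not tested.

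Mean shares of cells over the 4 libraries depended on depth. S1pr1 was at 5.64% thinned to 1500 UMIs, 10.5% unthinned and 3.71% thinned to 1000, and S1pr4 at 14.9%, 25.5% and 10.3%. Unthinned shares were 13.3% for Klf2 (7.40% thinned) and 0.0854% for S1pr5 (0.0485% thinned).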

Other observations

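In the 11153 barcodes without a Cd3e UMI, the other members were read without a test. Ccr7 was at 15.6 and 112 CPM in the Csf3r+/+ and at 68.9 and 45.4 CPM in the Csf3r-/- libraries. Klf2 was at 71.7 and 109 CPM and at 36.5 and 48.2 CPM, and S1pr1 at 29.7 and 54.6 CPM and at 47.4 and 31.6 CPM. S1pr5 gave 3, 8, 2 and 4 UMIs.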
